A study of Homo sapiens with 12 samples.

Results

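The regions described here are the m7G meRIP-seq peaks that overlap genes of splicing factors, heterogeneous nuclear ribonucleoproteins (hnRNPs) and RNA helicases. A peak was a member when it overlapped the GRCh38 RefSeq body of a protein-coding gene of the HNRNP, SRSF, SF3A, SF3B, SNRP, PRPF, U2AF, RBM, DDX or DHX family. This gave 194 of the 9958 deposited peak regions, in 90 of the 167 genes that the family names cover. All libraries were made from THP-1, a cell line of human monocytic leukemia, rendered adherent with the phorbol ester PMA at 100 ng/ml for 48 hours in every group. The groups were the immunoprecipitate (IP) and its input (IN, taken as input from the library names) of cells with a short hairpin against METTL1 (KD) and of the control (NC), with 3 libraries each: KD IP, KD IN, NC IP and NC IN. The sources used here do not say what the NC cells carried, whether the knockdown was 1 clone, or whether the 3 libraries of a group were separate cultures, so p-values measure the spread between these libraries.

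7-methylguanosine (m7G) caps the 5′ end of mRNAs transcribed in the nucleus. It also occurs inside RNAs, where METTL1, with its partner WDR4, places it in some tRNAs, microRNAs and mRNAs. The spliceosome removes introns. Its small nuclear ribonucleoproteins hold SNRP proteins, the U2 particle holds SF3A and SF3B, and U2AF marks the 3′ splice site for it. SR proteins (SRSF) mostly favour the use of an exon, hnRNPs package pre-mRNA and often block splice sites, and DEAD and DEAH box helicases (DDX, DHX) remodel RNA and RNA-protein complexes.

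Reads in peak regions summed to 1513492 to 1888972 in KD IP, 953727 to 1105477 in KD IN, 1476384 to 1676625 in NC IP and 907024 to 1052685 in NC IN libraries. METTL1 itself has no peak region, so the knockdown was not checked here. Of 20 monocyte and macrophage markers, 11 had a region, and their summed level was 2970 to 3279 CPM (reads in a region relative to the library's TMM-scaled total in peaks) in KD IN, against 1507 to 1586 CPM in NC IN. Of 20 markers of non-myeloid lines (epithelial, neuronal and embryonic kidney genes), a list written with earlier results of these data known, 14 had a region, and their sum was 1308 to 1564 CPM in KD IN, against 12814 to 13409 CPM in NC IN. In IP the monocyte sum was 2092 to 2204 CPM in KD and 1114 to 1274 CPM in NC, and the non-myeloid sum 916 to 1120 CPM in KD and 12355 to 13517 CPM in NC. KRT18, LIN28B, MAP9, PNMA8A and SOX11 were at 0 reads in KD IN, IRS4 in KD IP and SOX11 in NC IP, while none was at 0 in NC IN. Lymphoid and erythroid marker genes had no region. Every NC library carried the non-myeloid markers, so no result could be given without them. Their part in the KD against NC differences described below was not tested.

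A tested peak on the gene's strand covers the annotated start, the base that carries the cap, in 15 member genes. The first transcribed bases of 9 of them, chosen after their values were seen, are shown because the results below refer to them. Sequences are from RefSeq (GRCh38.p14). The lower case letters are the 50 bases before the start and the capitals the first 30 transcribed bases.
HNRNPUL1: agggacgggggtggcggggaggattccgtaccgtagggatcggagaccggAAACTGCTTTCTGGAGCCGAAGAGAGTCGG
HNRNPAB: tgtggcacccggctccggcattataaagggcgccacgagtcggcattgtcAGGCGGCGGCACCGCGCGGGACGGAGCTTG
SRSF5: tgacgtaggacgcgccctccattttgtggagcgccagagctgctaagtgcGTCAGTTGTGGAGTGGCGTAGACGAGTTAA
SF3A3: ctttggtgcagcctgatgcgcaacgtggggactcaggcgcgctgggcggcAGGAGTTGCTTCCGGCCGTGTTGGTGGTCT
SNRPC: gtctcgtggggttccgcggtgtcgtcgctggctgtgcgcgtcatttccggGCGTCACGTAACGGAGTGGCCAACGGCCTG
SNRPE: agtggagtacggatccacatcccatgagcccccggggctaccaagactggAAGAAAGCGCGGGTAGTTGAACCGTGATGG
RBM42: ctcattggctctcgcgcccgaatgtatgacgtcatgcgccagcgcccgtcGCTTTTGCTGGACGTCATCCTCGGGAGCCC
DDX41: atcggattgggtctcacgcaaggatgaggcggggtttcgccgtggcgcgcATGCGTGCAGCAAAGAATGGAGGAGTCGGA
DHX15: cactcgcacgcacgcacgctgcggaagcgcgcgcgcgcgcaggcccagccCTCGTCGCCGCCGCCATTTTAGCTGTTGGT

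The windows are HNRNPUL1 at chr19:41265031-41265110 (plus strand), HNRNPAB at chr5:178204483-178204562 (plus strand), SRSF5 at chr14:69767092-69767171 (plus strand), SF3A3 at chr1:37989993-37990072 (minus strand), SNRPC at chr6:34757455-34757534 (plus strand), SNRPE at chr1:203861797-203861876 (plus strand), RBM42 at chr19:35628986-35629065 (plus strand), DDX41 at chr5:177516932-177517011 (minus strand), DHX15 at chr4:24584525-24584604 (minus strand). A promoter window of 300 bases (250 before the start and 50 after it) was held for 81 of the 90 member genes, with a median GC content of 61.7%, against 58.3% for 27305 promoters in all. The letters AANATGGCG, searched on both strands, occurred in 13 of the 81 windows (16%) and in 3.37% of all promoters. DHX15 is one of the 13, with the match on the other strand within the capitals above. TATAAA, also searched on both strands, occurred in 7 of the 81 windows (8.64%, against 12% of all promoters), and HNRNPAB shows it before its start. These matches describe letters in the windows and were not tested.

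Of the 194 member peaks, 87 were in the KD set and 107 in the NC set, and peaks of both sets that overlap on 1 strand formed 145 sites. The HNRNP family held 61 peaks in 20 of its 26 genes, RBM 46 peaks in 23 of 39, DDX 26 in 16 of 38, SRSF 21 in 7 of 12, DHX 13 in 8 of 16 and PRPF 10 in 6 of 12. SF3B held 6 peaks in 3 of 6 genes, U2AF 5 in 2 of 3, SF3A 4 in 3 of 3 and SNRP 2 in 2 of 12. HNRNPF, SRSF2, SRSF3, SF3B1, U2AF1, PRPF31, DDX5, DDX21 and DHX8 are among the genes with no peak in the table. Among the genes with the most peaks, HNRNPU held 9, HNRNPA1 8, HNRNPH3 and SRSF11 6 each, and HNRNPA3 and SRSF4 5 each. Of the 90 genes, 44 had peaks in both sets, 21 in the KD set alone and 25 in the NC set alone. This count was not made over all genes, so no contrast with other genes can be drawn from it. Shares of overlapping peaks, for members and for all peaks, are given next.

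An overlap of 1 base or more with a peak of the other condition was found for 94 of 194 members (48.5%), against 38.9% of all peaks. Each overlap counts a peak of both sets, so intervals are given per set. The share was 54% of the KD members (exact binomial 95% interval 43 to 64.8%), against 38.8% of all KD peaks. It was 43.9% of the NC members (34.3 to 53.9%), against 39.1% of all NC peaks. Member regions held a median of 572 reads over the 12 libraries, against 87 for all regions, and the part of read depth in the overlap was not tested. The authors' fold enrichment per peak had a median of 4.45 for members (1.14 to 55.2), against 9.06 (1.09 to 637) for all peaks. The highest among members were RBM12 at 55.2 (NC set), HNRNPUL2 at 39.3 (NC set) and PRPF19 at 33.3 (KD set), while the HNRNPA1 region with the most reads had 2.78 (KD set).

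Position was read along the gene body for the 163 members that lie on the strand of their gene. The share within the first 10% was 20.2% (14.4 to 27.2%), with 48.5% in the middle 80% and 31.3% in the last 10%. Over 7236 peaks in 1 coding gene these shares were 33.7%, 38.1% and 28.2%, and the difference was not tested. Gene bodies include introns, and exons and untranslated regions were not separated here. Of the members whose gene strand is known, 163 of 172 (94.8%) lay on it. The other 9 lie opposite HNRNPA3, PRPF40B, DDX27 or RBM10 and may report another transcript.

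Counts were tested for 137 member regions with enough reads (66 genes, 95 sites). The other 57 held 3 to 81 reads over the 12 libraries (median 22) and were not tested. Tests are edgeR quasi-likelihood F tests over 5113 regions with Benjamini-Hochberg adjustment, called at an adjusted p under 0.05. Two-sided adjusted p-values below come from this fit. A KD and an NC peak at 1 site count many of the same reads, so counts per site are given too.

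The first comparison set KD against NC in the inputs, which measures the RNA level at each region. Bulk libraries cannot tell fewer cells of a type from less RNA per cell. All called hnRNP, SR protein and U2AF regions were lower in KD, where 1 gene can hold several regions. Of 137 member regions, 57 were lower and 11 higher, against 21.9% lower and 17.9% higher among all 5113 regions. The median log2 difference was -0.35 for members and -0.01 for all regions. One region per site gave 42 lower and 8 higher of 95, and one region per gene 28 lower and 6 higher of 66. In IP the same comparison gave 57 lower and 7 higher (20.1% and 20.9% of all regions), with a median of -0.55 for members and 0.05 for all. The inputs and the IP libraries shared 46 of the lower calls and 5 of the higher ones.

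By family, HNRNP had 27 lower and 0 higher of 50 tested regions in the inputs (median log2 -0.66), SRSF 7 and 0 of 15 (-0.36) and U2AF 4 and 0 of 5 (-0.67). The tested regions lie in 19 genes at 34 sites for HNRNP, 5 genes at 9 sites for SRSF and 2 genes at 3 sites for U2AF. All 4 lower U2AF calls are peaks of U2AF2, at 2 sites. DDX had 8 lower and 3 higher of 16 (-0.58) and DHX 5 and 2 of 10 (-0.45). RBM had 3 lower and 4 higher of 28 (-0.15), and PRPF 1 lower and 2 higher of 6 (0.69). The lower PRPF call, in PRPF19 (log2 -2.48), was lost without KD IN replicate 1 or 3 or NC IN replicate 1 or 3 (adjusted p = 0.057 to 0.12). SF3A had 1 lower of 1, SNRP 1 of 2 and SF3B 0 of 4. The higher calls were 3 regions of RBM47, RBM19, both PRPF40B regions, both DHX15 regions, DDX39A and 2 regions of DDX3Y. DDX39A (log2 0.83) was lost without KD IN replicate 1 (0.72, adjusted p = 0.072) or NC IN replicate 3 (0.72, adjusted p = 0.065). RBM19 (1.76) was lost without KD IN replicate 2 (1.40, adjusted p = 0.13) or NC IN replicate 3 (1.24, adjusted p = 0.087), and gave 2.40 without NC IN replicate 1. Of the RBM47 regions, the one with 118 reads (2.68) was lost without NC IN replicate 1 (2.12, adjusted p = 0.095) or 3 (2.17, adjusted p = 0.088), and gave 6.91 without NC IN replicate 2. The DDX3Y region with 102 reads (2.28) was lost without KD IN replicate 1 or 3 or NC IN replicate 1 or 3 (adjusted p = 0.068 to 0.12), and gave 7.48 without NC IN replicate 2. The other DDX3Y region ranked highest for KD over NC among called members whose libraries did not overlap (1 region per gene). That held in the inputs and in IP, and in the inputs it had the smallest p of the DDX regions. In IP the lower and higher counts were 26 and 2 for HNRNP, 9 and 0 for SRSF, 4 and 0 for U2AF, 5 and 1 for DDX, 4 and 0 for DHX, 5 and 2 for RBM and 0 and 2 for PRPF, with 1 and 0 for SF3A, 2 and 0 for SNRP and 1 and 0 for SF3B. The 2 higher HNRNP calls in IP are overlapping peaks of 1 HNRNPU site (log2 0.31, adjusted p = 0.021), lost with DESeq2 (0.23, adjusted p = 0.095). They were also lost when regions with at least 50 reads were tested (0.26). Leaving out KD IP replicate 1 or 2, KD IN replicate 1, NC IP replicate 1 or 3 or any NC IN replicate lost them too (adjusted p = 0.05 to 0.18). Differences between families were not tested.

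**Figure D1:**
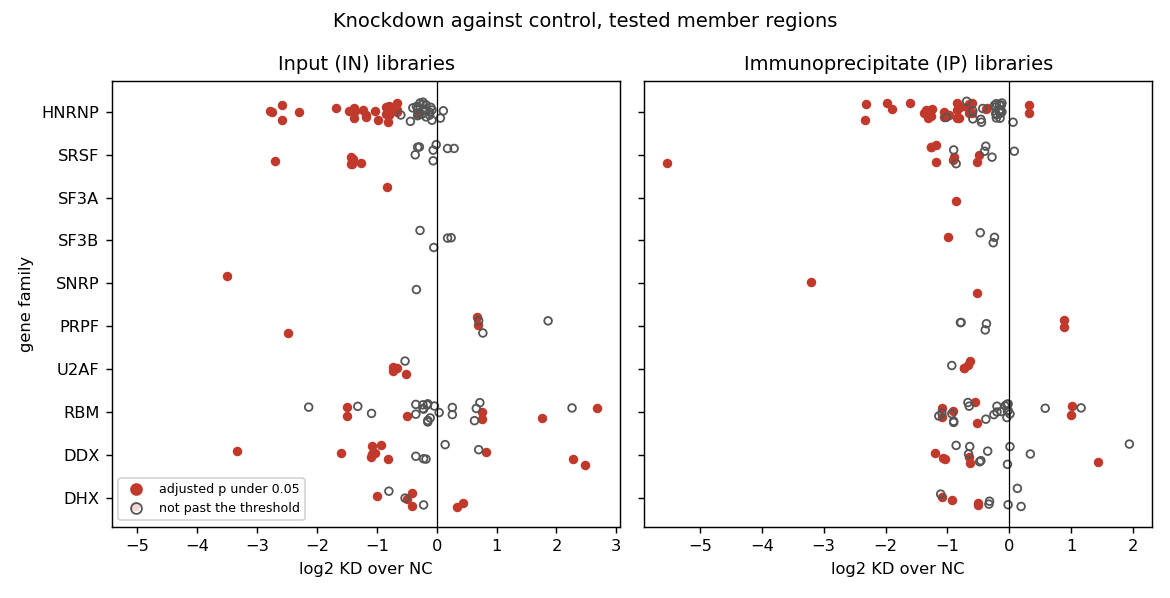
Log2 KD over NC of each tested member region (points, 137 regions), by gene family, in the inputs (left) and the IP libraries (right); filled red points have an adjusted p under 0.05. Most filled points lie below 0 in HNRNP, SRSF and U2AF, while PRPF, RBM, DDX and DHX hold called points on both sides in the inputs.

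HNRNPA1 encodes an abundant hnRNP that represses exon use and shuttles between nucleus and cytoplasm. Its region with the most reads (chr12:54282432-54282996) had 1575, 1456 and 1514 CPM in KD IN, against 4096, 3620 and 4224 CPM in NC IN. The groups do not overlap, and KD was 2.63-fold lower (log2 -1.39 ± 0.09 SE, adjusted p = 1.5e-11). In IP it had 1358, 1447 and 1385 CPM in KD, against 3356, 3208 and 3450 CPM in NC (log2 -1.26 ± 0.09, adjusted p = 7.8e-11). All 7 tested HNRNPA1 regions were lower in KD in the inputs, with log2 differences of -1.68 to -1.19. Regions in HNRNPA1L2 and HNRNPA1L3, near-identical copies of HNRNPA1, were also lower (log2 -2.78 to -2.30 in the inputs). Reads of such copies can be shared with HNRNPA1, so their values are uncertain.

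SRSF11 encodes an SR-related protein. The SRSF11 region at chr1:70250314-70250808 held 67138 reads over the 12 libraries, the most of any member. It had 2609, 2593 and 2383 CPM in KD IN, against 6579, 6784 and 6737 CPM in NC IN (2.65-fold lower, log2 -1.41 ± 0.09, adjusted p = 7.3e-12). In IP it had 2484, 2622 and 2290 CPM in KD and 5510, 5729 and 5654 CPM in NC (log2 -1.19 ± 0.09, adjusted p = 1.2e-10). Every KD library was below every NC library. SRSF4, a further SR protein, gave different values along the gene. A region at 65.1% of the gene body averaged 53.5 ± 2.5 CPM in KD IN and 129 ± 12 CPM in NC IN (SD, n = 3 each; log2 -1.26 ± 0.20 SE, edgeR adjusted p = 1.2e-05), while a region at 79.4% did not pass (log2 -0.29 ± 0.15, adjusted p = 0.14).

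HNRNPL held 1, 2 and 0 reads in KD IN, against 5, 6 and 6 reads in NC IN (log2 -2.58 ± 0.81, adjusted p = 0.014), a call lost without KD IN replicate 3 (-2.01, adjusted p = 0.06), while leaving out replicate 2 gave -3.40. HNRNPD, also known as AUF1 and a binder of AU-rich mRNA elements, had 1565, 1578 and 1319 CPM in KD IN, against 2539, 2914 and 2595 CPM in NC IN (log2 -0.85 ± 0.11, adjusted p = 9.5e-07). HNRNPH3, of the G-tract binding HNRNPH group, had 1193, 1115 and 1015 CPM in KD IN, against 1842, 1784 and 1647 CPM in NC IN (log2 -0.67 ± 0.10, adjusted p = 5.4e-06). Its 5 tested regions ranged from -1.03 to -0.67. HNRNPH1 differed by -0.79 ± 0.15 on the log2 scale (adjusted p = 0.00014). The region named for HNRNPA3 lies opposite the gene and differed by -0.81 ± 0.10 (adjusted p = 2.5e-07). By contrast, the 8 tested regions of HNRNPU, a scaffold protein of chromatin and RNA, had log2 differences of -0.32 to -0.08 in the inputs, and none passed the test.

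Core spliceosome genes had few tested regions. SNRPE encodes a ring protein of the small nuclear ribonucleoproteins, and its start is shown above. It held 4, 0 and 8 reads in KD IN, against 43, 34 and 48 reads in NC IN, and 9, 7 and 7 reads in KD IP, against 72, 76 and 52 reads in NC IP. No KD library reached an NC one, and the log2 difference in the inputs was -3.51 ± 0.53 (adjusted p = 8e-06). Leaving out KD IN replicate 2, with 0 reads, gave -2.87, and leaving out replicate 3 gave -4.47. SF3A3, the SF3A60 subunit of the U2 particle, had 175, 188 and 160 CPM in KD IN, against 331, 301 and 296 CPM in NC IN (log2 -0.83 ± 0.18, adjusted p = 0.00055). U2AF2, the large U2AF subunit, had 246, 190 and 172 CPM in KD IN, against 309, 366 and 291 CPM in NC IN at its internal site (log2 -0.67 ± 0.15, adjusted p = 0.00088). An overlapping peak there gave -0.52, a call lost without KD IN replicate 3 (-0.31, adjusted p = 0.17) or NC IN replicate 2 (-0.40, adjusted p = 0.1), among others.

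Among helicases and RBM genes the direction varied. Of the helicase regions with few reads, DHX33 had 0, 0 and 1 reads in KD IN, against 10, 8 and 19 reads in NC IN (adjusted p = 0.00041), and the ratio of NC over KD has a counting interval of 7.05 to 1695. DDX3X had 0, 2 and 1 reads in KD IN, against 11, 8 and 10 reads in NC IN (interval 3.39 to 56, adjusted p = 0.012), a call lost without KD IN replicate 1 (adjusted p = 0.058). DDX18 had 22, 11 and 13 reads in KD IN, against 51, 38 and 36 reads in NC IN (log2 -1.60 ± 0.37, adjusted p = 0.0011). None of these DHX33, DDX3X and DDX18 regions passed in IP (adjusted p = 0.25, 0.59 and 0.15). DDX10, a helicase of ribosome biogenesis, had 173, 140 and 150 CPM in KD IN, against 304, 351 and 337 CPM in NC IN (log2 -1.10 ± 0.14, adjusted p = 8.4e-07). DDX50, a paralog of the nucleolar helicase DDX21, differed by -1.09 ± 0.21 (adjusted p = 0.00016). The splicing regulator RBM25 had a region at 64% of its gene body that averaged 16.1 ± 4.3 CPM in KD IN and 46 ± 1.8 CPM in NC IN (SD, n = 3 each; log2 -1.50 ± 0.30 SE, edgeR adjusted p = 0.00032). A second RBM25 region within the same part of the gene, at 62.9%, did not pass (log2 -0.22 ± 0.11, adjusted p = 0.12).

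RBM47, which binds RNA and takes part in C-to-U editing with APOBEC1, was higher in KD. It had 126, 122 and 109 CPM in KD IN, against 67, 61.9 and 83.2 CPM in NC IN (log2 0.75 ± 0.18, adjusted p = 0.002). In IP it had 101, 98.1 and 116 CPM in KD, against 52.5, 52.9 and 52.2 CPM in NC (1.99-fold higher, adjusted p = 4.7e-05). The region named for PRPF40B was higher in both (log2 0.68 ± 0.12 in the inputs, adjusted p = 5.6e-05, and 0.88 ± 0.11 in IP, adjusted p = 7.7e-07), but it lies opposite PRPF40B and within FMNL3. DHX15, which helps to take the spliceosome apart after splicing, had 761, 788 and 854 CPM in KD IN, against 701, 531 and 683 CPM in NC IN (log2 0.33 ± 0.13, adjusted p = 0.041). That call was lost without NC IN replicate 2 (log2 0.26, adjusted p = 0.14) and without KD IN replicate 3 (log2 0.35, adjusted p = 0.053).

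**Figure D2:**
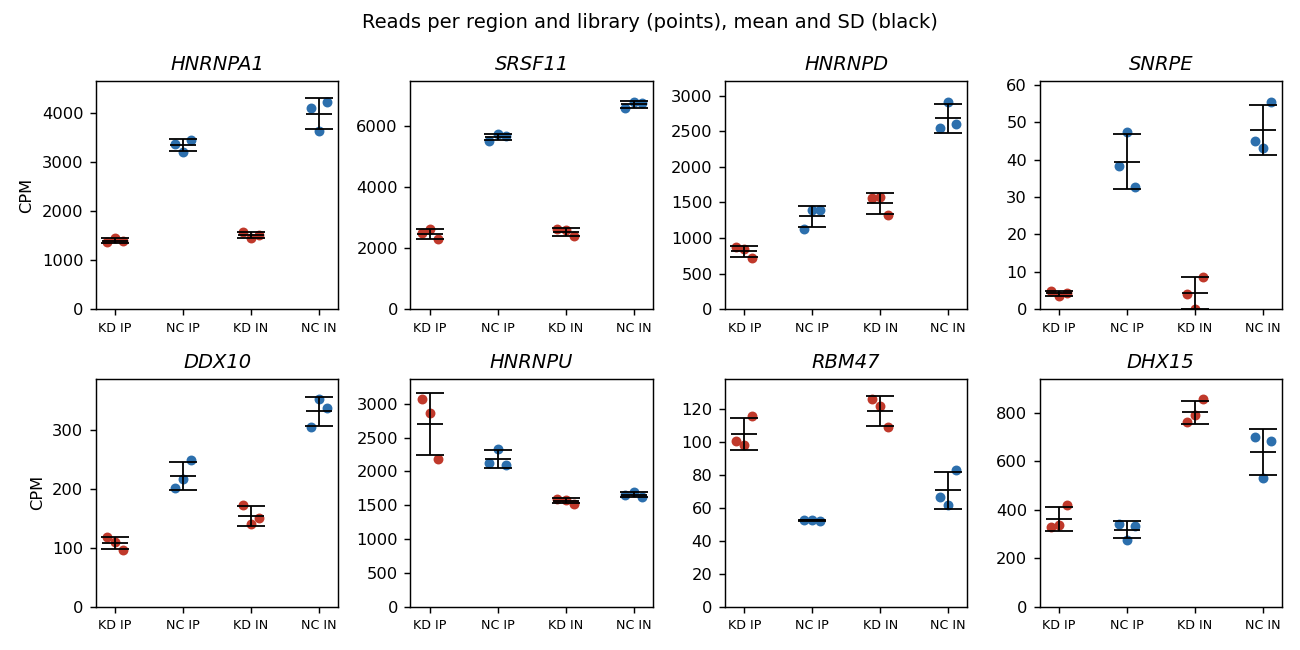
CPM (y axis, from 0) in each library (points, 3 per group) with mean and SD (black) for 1 region each of 8 member genes; KD is red and NC blue, IP to the left of IN. KD libraries lie below NC libraries for HNRNPA1, SRSF11, HNRNPD, SNRPE and DDX10 and above them for RBM47, while HNRNPU is close in IN and higher in IP than in IN.

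The second comparison set IP against IN within each condition, which measures the enrichment of a region by the m7G immunoprecipitation relative to the average peak region. More member regions were called lower in IP than higher. Every member is also a peak with a deposited fold enrichment of 1.14 or more. A region lower in IP here can thus be one the authors called enriched. Libraries were scaled to their reads in peaks, so lower in IP means less enriched than the average peak region. It does not by itself show depletion by the IP. How the authors' fold enrichment was scaled is not given in the sources used here, and the difference was not tested. In KD 15 of the 137 were higher in IP and 61 lower, against 23.5% and 21.4% of all regions. In NC 18 were higher and 57 lower, against 22.7% and 24%. The median log2 IP over IN of members was -0.25 in both conditions, against 0.23 in KD and 0.13 in NC for all regions. Scaling by library size alone moved the median of all regions to 0.40 in KD and 0.42 in NC and gave 20 higher and 45 lower members in KD and 28 higher and 37 lower in NC. KD and NC shared 46 of the lower calls and 13 of the higher ones. One region per site gave 9 higher and 43 lower of 95 in KD and 10 higher and 40 lower in NC.

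No DDX or DHX region was called higher in IP in either condition. DDX had 11 lower of 16 in KD and 10 in NC, and DHX 7 of 10 in KD and 8 in NC. SRSF had 0 higher and 4 lower of 15 in KD and 0 and 8 in NC. The SRSF11 calls in NC (log2 -0.40 and -0.25, at 2 overlapping peaks each) were lost with library size alone (-0.11 and 0.04, adjusted p = 0.33 and 0.68). So was an SRSF4 call in NC (-0.63, then -0.34, adjusted p = 0.24). HNRNP was mixed, with 10 higher and 26 lower of 50 in KD and 8 and 23 in NC. RBM had 1 higher and 8 lower of 28 in KD and 4 and 6 in NC. PRPF had 2 higher and 0 lower of 6 in KD and 3 and 0 in NC, and U2AF had 2 and 2 of 5 in KD and 2 and 1 in NC. The remaining families gave 0 higher and 1 lower of 1 for SF3A in both conditions, 0 and 0 of 2 for SNRP in both, and 0 and 2 of 4 in KD and 1 and 0 in NC for SF3B.

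**Figure D3:**
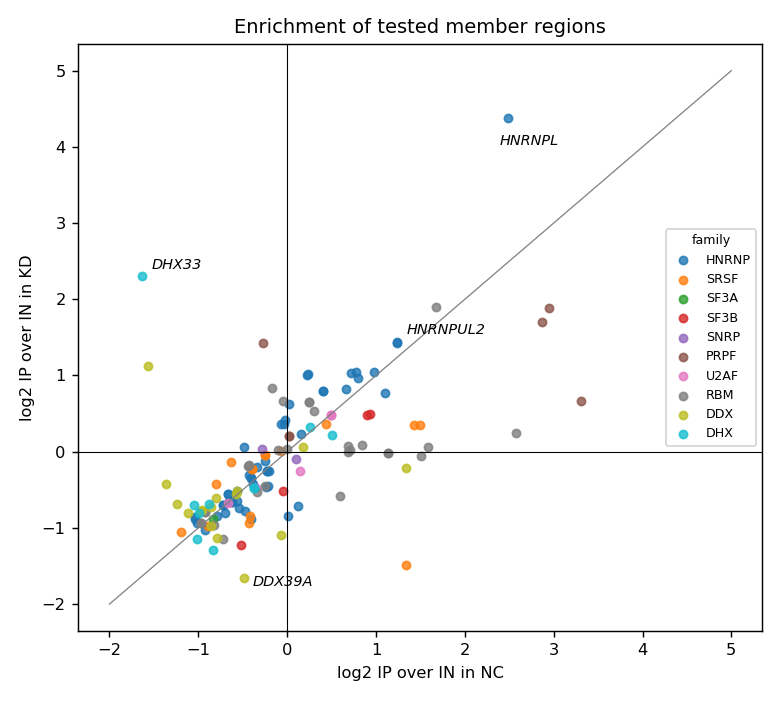
Log2 IP over IN in NC (x axis) and in KD (y axis) for the 137 tested member regions, coloured by family, with the line of equal enrichment in grey. Most points lie in the lower left, HNRNPL and HNRNPUL2 lie high in both conditions, and DHX33 and DDX39A lie away from the line.

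HNRNPUL1 and HNRNPUL2, paralogs of HNRNPU, were enriched in both conditions. HNRNPUL2 had 110, 96.6 and 81.9 CPM in KD IP, against 18.3, 44.9 and 43.5 CPM in KD IN (2.71-fold, log2 1.44 ± 0.25, adjusted p = 5.6e-05). In NC it had 81.2, 111 and 123 CPM in IP, against 40.9, 45.5 and 46.2 CPM in IN (log2 1.24 ± 0.25, adjusted p = 0.00023). The HNRNPUL1 peak covers the start printed above. It had 80.6, 68.7 and 77.6 CPM in KD IP, against 38.6, 40.1 and 30.4 CPM in KD IN (log2 1.05 ± 0.23, adjusted p = 0.00064), and in NC the log2 difference was 0.98 ± 0.23 (adjusted p = 0.001). No IP library of these regions overlapped its inputs.

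HNRNPL, a regulator that binds CA-rich RNA, had 33, 55 and 38 reads in KD IP, against 1, 2 and 0 reads in KD IN, and 67, 80 and 41 reads in NC IP, against 5, 6 and 6 reads in NC IN. The inputs hold few reads, and the KD ratio has a counting interval of 7.54 to 111. In NC the difference was 5.6-fold (log2 2.49 ± 0.47, adjusted p = 0.00011). HNRNPA0 averaged 90.6 ± 14 CPM in KD IP and 43.9 ± 20 CPM in KD IN (SD, n = 3 each; log2 1.03 ± 0.25 SE, edgeR adjusted p = 0.0016), and in NC its log2 value of 0.72 (adjusted p = 0.018) was lost without NC IN replicate 1 (0.60, adjusted p = 0.072).

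HNRNPU and U2AF2 held sites of both directions within 1 gene. The HNRNPU site at 13.6% of the gene body had 3062, 2866 and 2184 CPM in KD IP, against 1599, 1580 and 1522 CPM in KD IN (log2 0.79 ± 0.11, adjusted p = 1.8e-06). In NC it had 2128, 2328 and 2094 CPM in IP, against 1644, 1693 and 1620 CPM in IN (log2 0.40 ± 0.11, adjusted p = 0.0034). Its sites at 60.2%, 62.4% and 74.7% were all lower in IP, at -0.70 to -0.56 in KD and -0.72 to -0.62 in NC. U2AF2 was lower at 70.8% of the gene body (log2 -0.67 ± 0.15 in KD and in NC). An overlapping U2AF2 peak at that site gave -0.48 in KD and was not called in NC. That KD call was lost with library size alone (-0.30, adjusted p = 0.14) or without KD IN replicate 1 (-0.31, adjusted p = 0.17), among others. At 97.7% U2AF2 was higher (0.48 ± 0.20, adjusted p = 0.049 in KD, and 0.49 ± 0.18, adjusted p = 0.033 in NC). The higher value was lost in KD with DESeq2 (adjusted p = 0.063) and without KD IN replicate 2 (log2 0.28, adjusted p = 0.28). In KD it was also lost with both other read and peak filters (adjusted p = 0.078 and 0.052). Leaving out KD IP replicate 1 or 3, KD IN replicate 1, NC IP replicate 1 or any NC IN replicate lost it too (adjusted p = 0.052 to 0.14). In NC the higher value was lost without NC IP replicate 1, NC IP replicate 2 or NC IN replicate 1. RBM25 at 62.9% of its gene body was higher in IP in KD (log2 0.53 ± 0.11, adjusted p = 0.00034), and in NC (0.30 ± 0.11, adjusted p = 0.027) this was lost without NC IP replicate 3 (0.27, adjusted p = 0.073).

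**Figure D4:**
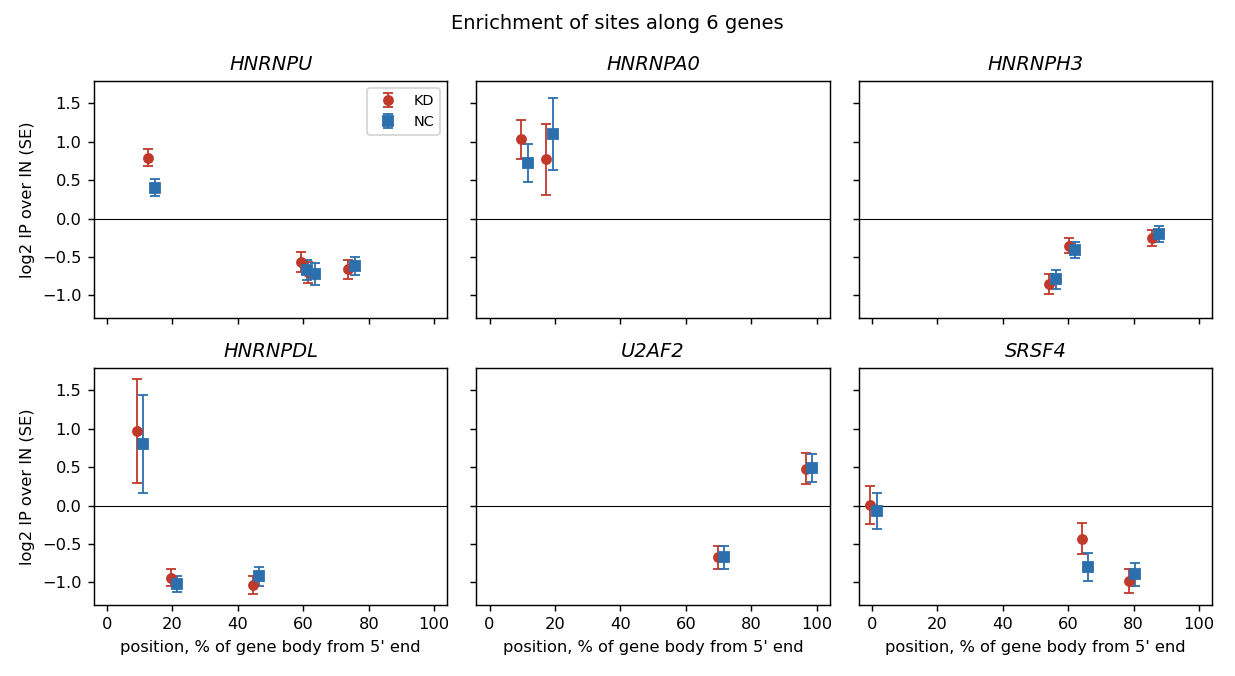
Log2 IP over IN (points, with SE bars) of the tested sites of 6 genes against their position in the gene body, in percent from the 5′ end, for KD (red circles) and NC (blue squares). HNRNPU is positive at 13.6% and negative at the 3 later sites, U2AF2 changes sign between 70.8% and 97.7%, and HNRNPH3 is negative throughout.

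Among regions lower in IP, SRSF5, an SR protein, had 427, 407 and 418 CPM in KD IP, against 875, 845 and 875 CPM in KD IN at 26.7% of the gene body (log2 -1.05 ± 0.11, adjusted p = 6e-08). In NC the log2 difference there was -1.19 ± 0.12 (adjusted p = 8.8e-09). DHX15 had 329, 338 and 420 CPM in KD IP, against 761, 788 and 854 CPM in KD IN (log2 -1.15 ± 0.13, adjusted p = 7e-08), and its peak covers the start shown above. In NC it had 341, 277 and 334 CPM in IP, against 701, 531 and 683 CPM in IN (log2 -1.01 ± 0.13, adjusted p = 4.9e-07). The authors' fold enrichment of this peak, from the NC set, was 5.63, which may be on another scale. SF3A3 and DDX41 peaks also cover the start and were lower in IP, at -0.88 and -0.76 in KD and -0.84 and -0.96 in NC, all past the test. RBM3, a cold-induced RNA-binding protein, differed by -0.93 ± 0.10 in KD and -0.97 ± 0.10 in NC (adjusted p = 4.9e-08 and 2.3e-08). RBM39, DDX42, a helicase of the U2 particle, and DHX38, the human homolog of yeast Prp16, were lower in both conditions too, between -1.05 and -0.70.

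Values at the other printed starts varied. SNRPC, a protein of the U1 particle, had 158, 185 and 163 CPM in KD IP, against 211, 176 and 150 CPM in KD IN (log2 -0.09 ± 0.15, adjusted p = 0.65), and its IP and IN libraries overlapped in NC too (0.10 ± 0.14, adjusted p = 0.57). The start of SRSF5 was lower in IP in KD (log2 -0.94 ± 0.18, adjusted p = 0.00013), with 112, 117 and 88.2 CPM in IP, against 240, 207 and 162 CPM in IN, and in NC it differed by -0.43 ± 0.18, which did not pass. RBM42 differed by -0.53 ± 0.15 in KD (adjusted p = 0.0069) and by -0.34 ± 0.15 in NC (adjusted p = 0.061). The KD call of RBM42 was lost with library size alone (log2 -0.36, adjusted p = 0.067). The authors' fold enrichment of these NC set peaks was 4.02 for the SRSF5 start and 4.25 for RBM42. HNRNPAB had 131, 158 and 140 CPM in KD IP, against 114, 121 and 179 CPM in KD IN (log2 0.06 ± 0.18, adjusted p = 0.81), and differed by -0.49 ± 0.17 in NC (adjusted p = 0.021). That NC call was lost with DESeq2 (adjusted p = 0.052) and without NC IN replicate 1 (log2 -0.28, adjusted p = 0.23). HNRNPDL, a paralog of HNRNPD, was lower in IP at 45.5% of its gene body, with 607, 628 and 466 CPM in KD IP, against 1198, 1228 and 1060 CPM in KD IN (log2 -1.03 ± 0.12, adjusted p = 1e-07), and by -0.92 ± 0.12 in NC (adjusted p = 4.4e-07).

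The 6 start-covering genes not printed had 93 to 1146 reads over the 12 libraries. Their log2 IP over IN in KD and in NC was -0.22 and 1.34 for DDX23, -0.02 and 1.14 for RBM12, 0.48 and 0.90 for SF3B2, 0.37 and 0.44 for SRSF4, -0.52 and -0.05 for SF3B4 and -0.25 and 0.15 for U2AF1L4. Of these values the KD one of SF3B4 passed the test (adjusted p = 0.032), and it was lost without KD IP replicate 3 (-0.35, adjusted p = 0.17), KD IN replicate 1 (adjusted p = 0.074) or KD IN replicate 2 (adjusted p = 0.053). It was also lost with library size alone, with no count filter and with 1 region per site (adjusted p = 0.088 to 0.16). In NC, overlapping peaks of RBM12 (log2 1.51, adjusted p = 0.047) and SF3B4 (0.93, adjusted p = 0.005) passed, the RBM12 call being lost without NC IP replicate 1 (1.31, adjusted p = 0.16) or NC IN replicate 1 (1.17, adjusted p = 0.15), among others.

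Near the gene start, 27 members were tested. Of these, 1 was higher and 9 lower in IP in KD, and 4 were higher and 5 lower in NC, with a median log2 of -0.05 in each. Over all 1560 tested regions in that part of the gene, 438 were higher and 225 lower in KD and 443 higher and 232 lower in NC, with medians of 0.50 and 0.49. The middle of the gene gave medians of -0.50 in KD and -0.45 in NC for 56 members, against -0.13 and -0.30 for 1412 regions. Here too the regions compared lie in 1 coding gene, a limit not set for members. The difference between members and other regions within a part of the gene was not tested.

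The third comparison asked whether enrichment changed with the knockdown, as the difference of the log2 IP over IN values, KD minus NC. No member region and no region of the table was called by edgeR (0 of 137 and 0 of 5113, 0%). The lack of calls does not show that enrichment was unchanged. At an unadjusted p under 0.05 there were 11 members and 610 regions in all (11.9% of the 5113). DESeq2 called 0 members, and 8 regions higher and 13 lower in all. The median change was 0.03 for members and 0.08 for all regions.

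The smallest p among members belonged to HNRNPC, which binds U-rich pre-mRNA. It had 82.7, 88.1 and 60.8 CPM in KD IP and 145, 136 and 138 CPM in KD IN, against 108, 119 and 179 CPM in NC IP and 146, 145 and 111 CPM in NC IN. The change was -0.86 ± 0.27 (unadjusted p = 0.0044, adjusted p = 0.23). DDX39A, a paralog of the export helicase UAP56, had a change of -1.17 ± 0.39 that did not pass (adjusted p = 0.25), with 21.3, 23.9 and 18 CPM in KD IP and 82.3, 57.4 and 62 CPM in KD IN, against 27.1, 25.5 and 28.3 CPM in NC IP and 42.9, 41.7 and 28.9 CPM in NC IN. The HNRNPU site at 13.6% had a change of 0.38 ± 0.15 (adjusted p = 0.33). The 95% interval was -0.12 to 0.39 for the HNRNPA1 region and -0.03 to 0.46 for the SRSF11 region described first. In the authors' deposited table of changes, 1 of 194 members had an adjusted p under 0.05, against 0.783% of all peaks. It lay in DDX3Y (log2 change -1.17, adjusted p 0.046), the Y-linked copy of DDX3X. This is the DDX3Y region that ranked highest for KD over NC in the inputs and in IP.

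Genes of neighbouring steps, taken from lists chosen with earlier results of these data known, were also compared between KD and NC inputs. Over all 5113 tested regions, 21.9% were lower and 17.9% higher. Other spliceosome proteins had 6 lower (28.6%) and 0 higher of 21 tested regions. Other splicing regulators had 14 lower (25.5%, in 8 genes) and 11 higher (20%, in 3 genes) of 55. The lower shares of these lists were near that of all regions. Exon junction, export and surveillance genes had 8 lower (50%, in 2 genes) and 1 higher of 16. Cleavage and polyadenylation genes had 12 lower (48%, in 5 genes) and 0 higher of 25, and splicing kinases 0 lower and 1 higher of 2. No difference from all regions was tested. The 11 higher splicing regulator calls were 8 overlapping SYNCRIP regions at 2 sites, 2 of QKI and 1 of PCBP1. PNN, PABPN1 and SYNCRIP are examples picked after their values were seen. PNN, a nuclear speckle protein, averaged 840 ± 157 CPM in KD IN and 2666 ± 201 CPM in NC IN (SD, n = 3 each; log2 -1.66 ± 0.14 SE, edgeR adjusted p = 1.1e-09). PABPN1, the nuclear poly(A)-binding protein, averaged 574 ± 30.9 CPM in KD IN and 997 ± 30 CPM in NC IN at 1 of its sites (SD, n = 3 each; log2 -0.80 ± 0.10 SE, edgeR adjusted p = 3.9e-07). SYNCRIP, also called hnRNP Q, was higher, with 2059 ± 27 CPM in KD IN and 1591 ± 101 CPM in NC IN (SD, n = 3 each; log2 0.37 ± 0.10 SE, edgeR adjusted p = 0.0031).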

How the data were processed

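The authors deposited 1 table of peaks with raw read counts per region in 12 libraries. Per the submitters' processing notes, fastp 0.23.4 did the trimming and GRCh38 was the build; the aligner, peak caller and read counter are not given in the sources used here. Also deposited by the authors are for each peak call a fold enrichment (IP relative to input), p-values and adjusted p-values of the calls, a log2 change between conditions with its p-values, and the peak length, which follows from start and end. Start positions are printed as deposited and appear to count from 0.

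Peaks were named by overlap with RefSeq gene bodies, whatever the strand; gene strands came from the promoter table. The deposited counts entered edgeR 4.0.16 under R 4.3.3 (filterByExpr, minimum count 10 and total 15; TMM; 4 group means; quasi-likelihood F test), with Benjamini-Hochberg adjustment over 5113 regions. CPM uses TMM-scaled sizes of reads in peaks, which are not the sequencing depth. The fit was tested on simulated data. DESeq2 1.42.0, library size alone, other filters, a replicate block, 1 region per site and leaving out each library were alternatives.

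Members and gene lists were chosen with earlier results of these data known. Genes were named mainly by fixed rules. Per contrast these took the 8 highest and 8 lowest called regions whose libraries do not overlap (the 6 smallest p where none passed). Per family they took the 3 smallest p and the 2 with most reads, and genes with 4 or more peaks were added. Not every region so named is printed, so the printed genes are a part of the set these rules give. Starts, motifs and examples from the other lists were chosen after their values were seen. Binomial and counting intervals cover counting error only; those of a log2 change come from the fit and include the spread between libraries. 1 gene is not reported here.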

Additional observations from a re-analysis of the deposited data

How the results depend on the processing

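Leaving out 1 library at a time gave, for IP over IN in KD, 11 to 15 members higher and 53 to 63 lower; in NC, 12 to 22 higher and 46 to 56 lower; for KD over NC in the inputs, 8 to 12 higher and 50 to 55 lower; in IP, 5 to 7 higher and 51 to 60 lower; and for the change in enrichment, 0 to 0. A fit on 1 region per site (95) gave 37 lower in KD and 32 lower in NC for IP over IN, and 4 higher for KD over NC in IP, where fewer regions are tested. Library size alone in place of TMM gave 28 higher and 37 lower for IP over IN in NC, and turned the sign there for both SRSF11 regions at chr1:70250314-70250808 and for the HNRNPA1 region with most reads, each to 0.04 from -0.25 (adjusted p = 0.68, 0.68 and 0.74). Over all regions it gave 1462 higher and 835 lower in KD, against 1200 and 1096 with TMM, and 1597 and 778 in NC, against 1161 and 1228; the cause was not tested. For the change in enrichment over all regions, testing without a count filter gave 24 higher and 21 lower, and the replicate block 15 and 1. Requiring an overlap of 50% of both peaks gave 40.7% shared members. Keeping peaks on the gene's strand, chosen after seeing the data, gave 42 lower and 9 higher for KD over NC in the inputs. The replicate block gave, for IP over IN, 62 lower and 15 higher in KD and 61 lower and 15 higher in NC. For KD over NC it gave 56 lower and 11 higher in the inputs and 57 lower and 7 higher in IP. Deviations of IP and IN libraries from their group means correlated at 0.048 to 0.063 in KD for libraries of 1 number. For different numbers the KD values were -0.053 to -0.00044. In NC they were -0.019 to 0.068 for 1 number and -0.064 to 0.045 for different numbers. Values this small cannot tell whether libraries of 1 number were paired. Read depth limits the 57 untested members.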
